A study of Mus musculus with 16 samples.

Results

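The genes described here are 9 defining genes of B and T lymphocytes, chosen by symbol from the 55385 genes of a short-read RNA-Seq count table of mouse tissues. The 4 B cell genes were Cd79a, Cd79b, Ms4a1 and Cd22, and the 5 T cell genes were Cd3d, Cd3e, Cd3g, Cd4 and Cd8a. The rule uses symbols and no threshold on a measured value, although the 9 genes were chosen with earlier results of these data known. Each symbol matched 1 gene of the table. The study asked how RNA metabolism of 8 organs differs between feeding and fasting. Its mice were male C57BL/6 animals that arrived at 12 weeks of age, were acclimatized for a minimum of 10 to 14 days, and were killed at the same hour of the morning after either continuous access to chow (fed) or 24 h without food (fasting). The 8 organs were spleen, lung, liver, kidney, heart, muscle, and the white and the brown adipose depots. Equal amounts of tissue from the 3 mice given one treatment were combined, and RNA was extracted from the mixture. Each tissue and treatment therefore has 1 library, 16 in all, and no library has a replicate. The labels name no transgene, deletion or agent. In bulk tissue, fewer lymphocytes and less of a transcript per lymphocyte cannot be told apart.

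B cells recognise antigen with a surface immunoglobulin, which has almost no cytoplasmic part of its own and signals through a bound pair of proteins, the products of Cd79a and Cd79b. Ms4a1 encodes CD20, a membrane protein of mature B cells, and Cd22 encodes a lectin that binds sialic acid and dampens signalling from the B cell receptor. T cells recognise antigen with a receptor that likewise relies on partner chains, the CD3 delta, epsilon and gamma chains encoded by Cd3d, Cd3e and Cd3g. Cd4 and Cd8a encode the coreceptors that divide T cells into helper and cytotoxic cells, and Cd4 is also transcribed in some macrophages and dendritic cells. Spleen is a lymphoid organ packed with both lineages, lung holds many lymphocytes in its vessels and airways, and the other 6 organs hold few. The thymus, where T cells develop, was not among the tissues sampled.

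On the GRCm38 build of the mouse genome, Cd3g (chr9:44969572-44980431, minus strand) and Cd3d (chr9:44981786-44987339, plus strand) lie head to head with 1354 bases between them, and Cd3e (chr9:44998740-45009627, minus strand) follows 11400 bases after the end of Cd3d. Cd79a (chr7:24897381-24902197, plus strand) and Cd22 (chr7:30865402-30880342, minus strand) share a chromosome, as do Cd8a (chr6:71373427-71379173, plus strand) and Cd4 (chr6:124864692-124888221, minus strand). Cd79b lies at chr11:106311341-106314762 and Ms4a1 at chr19:11249675-11266241, both on the minus strand. The exons of Cd22 shared 479 bases with Gm29439 and those of Cd3e shared 135 bases with Gm48719, both on the opposite strand. These neighbours held 16 and 11 counts over the 16 libraries in all. The libraries were strand-specific, but the strand setting of the counting is not given in the sources used here, so reads of the shared bases may have been left out or given to either gene.

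Promoter sequences from RefSeq on GRCm38.p6 were on hand for 6 of the 9 members, and 5 of them had at least 100 bases before the first annotated exon. They are shown so that the start regions of the 3 CD3 genes and Cd8a can be compared, with Cd79a as the 1 B cell gene for which a window could be given. Each window begins 250 bases before the RefSeq start site and stops at the start site or at the first exon of the deposited annotation, so that no transcribed base is printed. Capitals mark E-boxes (CANNTG, either strand), the motif bound by E proteins, a family of transcription factors with known roles in B and T cell development.

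The window of Cd79a covered chr7:24897247-24897380 on the plus strand. Those of Cd3g and Cd3d, which face away from each other across the interval between the genes, covered chr9:44980432-44980681 on the minus strand and chr9:44981536-44981785 on the plus strand. Those of Cd3e and Cd8a covered chr9:45009628-45009861 on the minus strand and chr6:71373177-71373426 on the plus strand. All 5 are written 5′ to 3′ on the strand of the gene.
Cd79a: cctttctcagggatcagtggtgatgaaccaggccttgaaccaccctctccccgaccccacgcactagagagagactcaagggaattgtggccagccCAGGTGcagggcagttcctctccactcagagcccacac
Cd3g: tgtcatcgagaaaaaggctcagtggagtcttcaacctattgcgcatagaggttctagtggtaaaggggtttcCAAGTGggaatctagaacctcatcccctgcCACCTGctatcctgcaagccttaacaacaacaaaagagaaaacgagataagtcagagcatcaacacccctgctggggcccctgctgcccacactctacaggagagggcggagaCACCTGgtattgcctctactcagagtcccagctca
Cd3d: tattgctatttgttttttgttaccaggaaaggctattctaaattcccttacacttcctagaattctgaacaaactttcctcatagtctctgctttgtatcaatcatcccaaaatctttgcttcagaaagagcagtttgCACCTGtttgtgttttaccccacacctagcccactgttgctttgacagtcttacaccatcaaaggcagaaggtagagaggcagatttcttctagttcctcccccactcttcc
Cd3e: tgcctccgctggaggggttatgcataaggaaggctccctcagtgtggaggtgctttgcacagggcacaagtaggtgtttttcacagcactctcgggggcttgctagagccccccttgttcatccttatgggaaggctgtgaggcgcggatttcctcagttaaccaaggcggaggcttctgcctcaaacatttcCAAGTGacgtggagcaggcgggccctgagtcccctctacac
Cd8a: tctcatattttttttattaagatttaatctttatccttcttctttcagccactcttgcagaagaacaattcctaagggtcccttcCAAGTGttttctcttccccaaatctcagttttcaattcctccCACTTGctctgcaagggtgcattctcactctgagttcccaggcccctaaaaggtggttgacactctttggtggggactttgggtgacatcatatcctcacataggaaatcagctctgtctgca

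The E-box motif matched 1 time in Cd79a, Cd3d and Cd3e, 2 times in Cd8a and 3 times in Cd3g. It is short and common: among 32851 promoter windows it was present in 66.2% of all stretches of 250 bases, 64.0% of those of 234 bases (the length for Cd3e) and 45.4% of those of 134 bases (the length for Cd79a). The octamer ATTTGCAT, searched on both strands, matched in none of the 5 windows and in 1.60% of all windows of 250 bases. The TATA box TATAAA and the Runx core TGTGGT also had no match in these 5 windows, against 12.4% and 14% of all windows of 250 bases. These matches describe letters in the windows and do not show binding.

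The libraries held 14245178 to 36069968 counts. Levels are given in CPM, the counts of a gene scaled to a common library total, which compares 1 gene between libraries, and in CPM per kilobase of exon length where genes are compared with each other. Intervals are 95% and cover counting error only, and 3 counts, taken as the floor for a gene with no count, correspond to 0.0832 to 0.211 CPM. Of the defining genes listed for each tissue, 2 were not highest under its label. Elovl3 of the brown adipose list was at 537 and 238 CPM in fed and fasting liver against 10.4 and 29.4 CPM in brown adipose, and Nppa of the heart list was at 198 CPM in fed lung against 119 CPM or less in heart. The fed lung library stood apart in other genes as well. It held transcripts of developing lymphocytes and thymus that the fasting lung library almost lacked. Rag1, the recombinase of antigen receptor genes, was at 60.9 CPM in fed lung and 0.776 CPM in fasting lung. Dntt, the polymerase that adds bases at receptor joints, was at 13.9 and 0.166 CPM, and Psmb11, a proteasome subunit of thymic cortical epithelium, at 1.76 and 0.0554 CPM. Summed over 8 genes of that kind (Rag1, Rag2, Dntt, Ptcra, Igll1, Vpreb1, Foxn1 and Psmb11, a list without Cd1d1 and Ccl25, which many tissues transcribe, trimmed after the values were seen), the level was 79.4 CPM in fed lung against 1.41 CPM in fasting lung. It was 4.68 and 5.17 CPM in fed and fasting spleen and 0 to 1.28 CPM in the libraries of the other 6 tissues. Igll1 was at 0 in fed lung and the other 7 genes of the list were present. Fed lung also held more of the heart genes Myh6 (529 against 326 CPM) and Nppa (198 against 27.4 CPM) than fasting lung. The part of these transcripts in the results for lung was not tested. The counts of members called within tissues and the fit of fasting over the tissues are also given without lung.

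**Figure D1:**
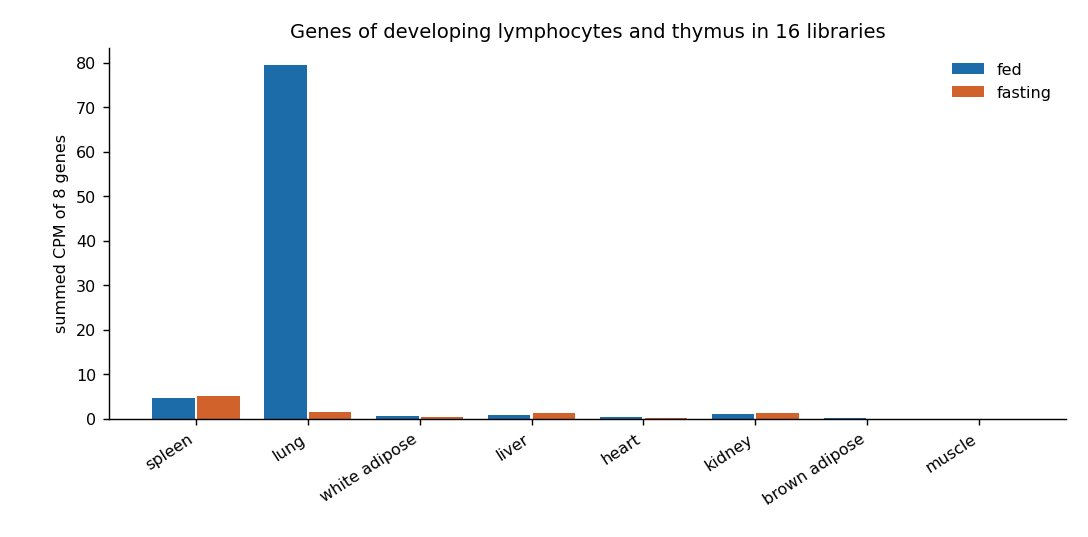
Summed level (CPM, linear axis from 0) of 8 genes of developing lymphocytes and thymus in the 16 libraries, with 1 bar per library, blue for fed and orange for fasting. The bar of fed lung reaches 79.4 CPM, and no other library exceeds 5.17 CPM.

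All 9 members were highest in spleen, next highest in lung and at or below 2.50 CPM in each of the other 12 libraries. The genes of the B cell receptor complex stood at 352 and 330 CPM (Cd79a) and at 609 and 600 CPM (Cd79b) in fed and fasting spleen. Ms4a1 was at 883 and 861 CPM and Cd22 at 720 and 629 CPM. Among the T cell genes of spleen, Cd3d was at 41.5 CPM in both libraries, Cd3e at 44.7 and 41.9 CPM, and Cd3g at 56.3 and 55.3 CPM. The coreceptors Cd4, at 90.3 and 94.0 CPM, and Cd8a, at 76.7 and 66.7 CPM, were the highest T cell genes on this scale. Every B cell gene thus exceeded every T cell gene in spleen by CPM.

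Since the genes differ in length, from 1431 bases (Cd79b) to 6187 bases (Ms4a1), the order within the 9 changed when levels were expressed per kilobase. In fed spleen Cd79b led with 425 CPM per kilobase, followed by Cd79a with 242 and by Ms4a1 and Cd22 with 143 each. Cd3d, Cd4 and Cd8a stood close together at 22.9, 22.4 and 21.1 CPM per kilobase, Cd3g was at 17.2 and Cd3e at 11. The separation of the lineages remained on this scale, since the lowest B cell gene was still far above the highest T cell gene.

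Lung held the members at 2.55 to 46.0 CPM. In fed lung the B cell genes Cd79a, Cd79b, Ms4a1 and Cd22 were at 23.8, 42.9, 46.0 and 45.4 CPM. In fasting lung they were at 12, 22.9, 21.3 and 26.3 CPM. Each B cell gene was therefore lower in the fasting lung library.

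For the T cell receptor chains of lung, Cd3d was at 7.65 CPM fed and 2.58 CPM fasting, Cd3e at 7.78 and 2.55 CPM, and Cd3g at 9.88 and 4.30 CPM. The coreceptor Cd4 was at 18.0 and 4.49 CPM and Cd8a at 18.3 and 3.44 CPM. All 5 T cell genes were lower in fasting lung. Per kilobase, Cd8a, Cd4 and Cd3d led in fed lung with 5.03, 4.46 and 4.22 CPM, and in fasting lung Cd3d and Cd3g, at 1.42 and 1.31 CPM, stood above Cd4 and Cd8a, at 1.11 and 0.945 CPM. Fed lung is the library with the thymus transcripts described above.

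In the remaining 6 tissues each member rested on 0 to 62 counts. Cd79a was at 1.37 CPM in fed white adipose, 1.28 CPM in fed heart, 0.961 CPM in fasting liver and lower in every other of these libraries. Cd79b, Ms4a1 and Cd22 reached 2.26, 2.50 and 2.48 CPM at most. Cd4 was the highest T cell gene in white adipose (2.15 CPM fed and 2.22 CPM fasting) and in liver (2.17 and 1.48 CPM), whereas Cd8a was the highest in fed kidney (1.20 CPM against 0.713 CPM for Cd4). Muscle had the lowest mean of its 2 libraries for all 9, although for Cd3d its range overlapped that of heart. Cd3g had 0 counts in both muscle libraries, and Ms4a1 and Cd3e had 0 in fasting muscle, where the floor of 3 counts is 0.0970 CPM. Cd3d had 0 counts in fasting heart.

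**Figure D2:**
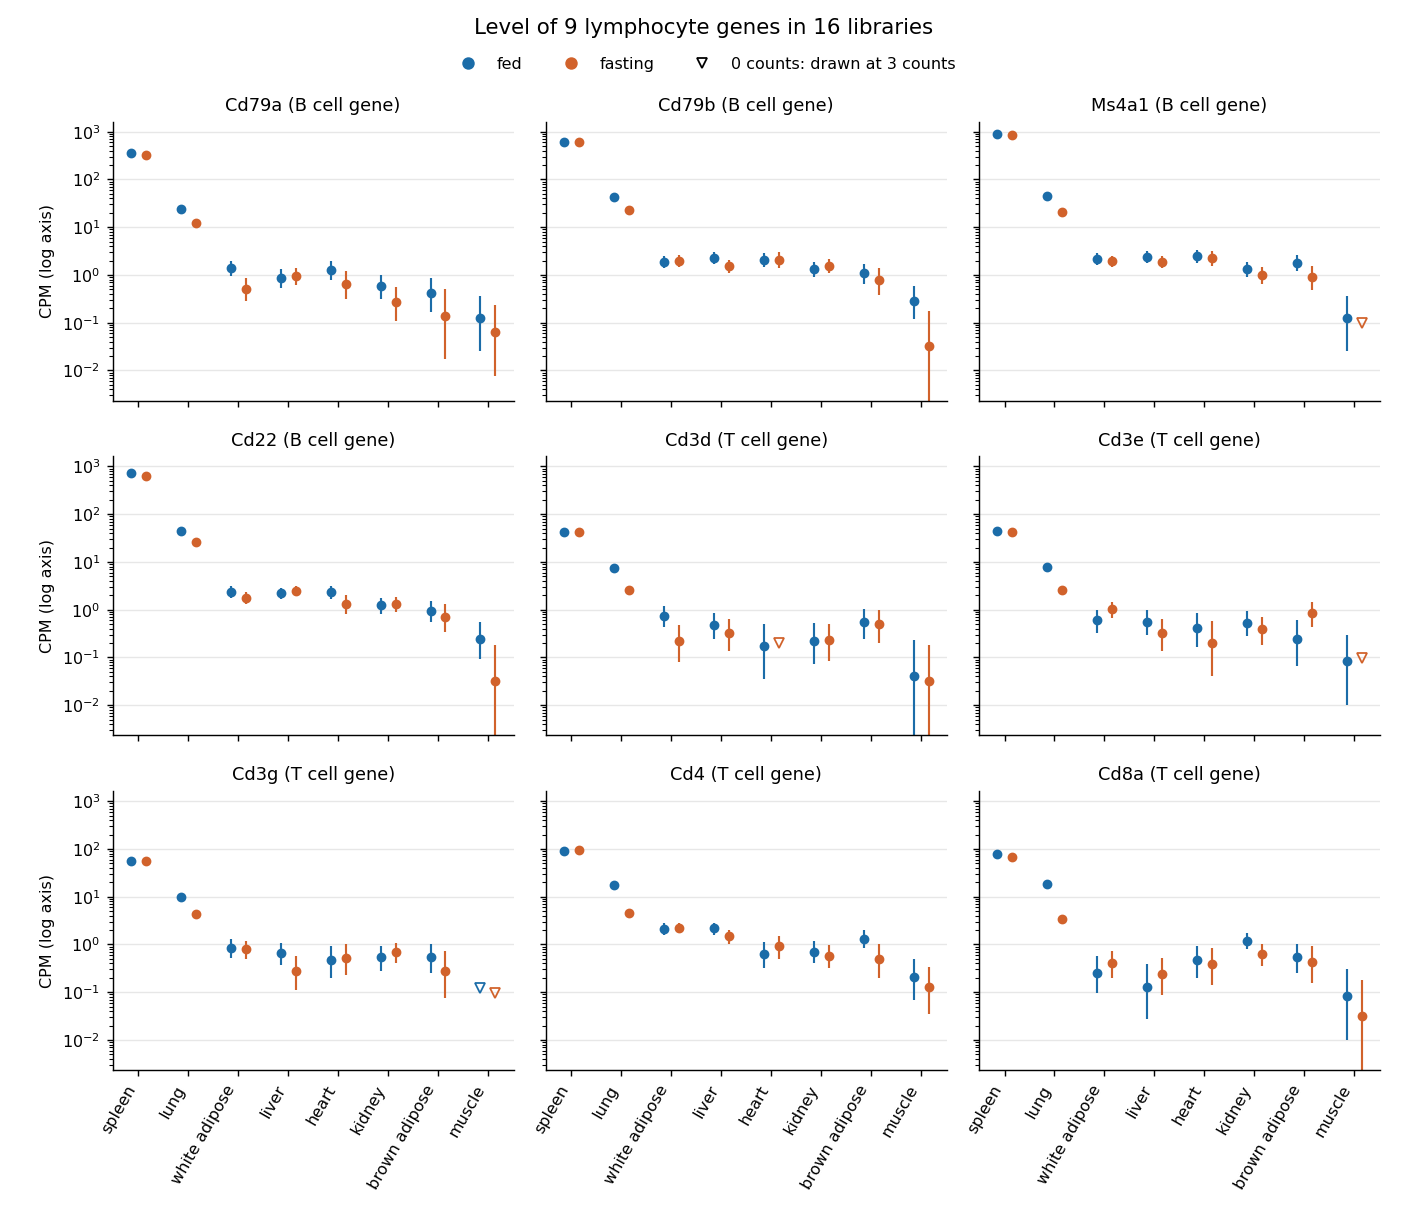
Level of each of the 9 members in the 8 tissues (CPM, log axis), with blue points for the fed and orange points for the fasting library and 95% Poisson intervals. Open triangles mark libraries with 0 counts, drawn at the CPM of 3 counts. Spleen is highest and lung next in all 9 panels, and muscle has the lowest mean.

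The order of the tissues by the mean of their 2 libraries began with spleen and lung and ended with muscle for every member. Between these ends the order differed by gene and most neighbours could not be separated, because their fed and fasting levels overlapped. For Cd79a the order was heart, white adipose, liver, kidney and brown adipose, with mean levels of 0.967, 0.942, 0.915, 0.425 and 0.281 CPM. Heart, white adipose and liver overlapped, and so did kidney and brown adipose. For Cd4 the order was white adipose, liver, brown adipose, heart and kidney at 2.19, 1.83, 0.908, 0.778 and 0.647 CPM. White adipose and liver overlapped, and the lower 3 did as well. For Cd8a kidney followed lung with a mean of 0.912 CPM, and its range did not reach that of brown adipose at 0.482 CPM, while liver was next to last at 0.185 CPM. The order, like the percents of spleen below, rests on scaling by library totals. Cd3g was higher in kidney (0.616 CPM) than in liver (0.466 CPM). With the TMM scaling used for tissue pairs below, it was higher in liver by 0.23 ± 0.47 on the log2 scale, which was not called.

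The low levels can be read beside the level of genes of another organ in the same library. Genes restricted to lung (Sftpc, Scgb1a1 and Sftpb) appeared at 0.178% and 0.256% of their lung level in fed and fasting heart, at 0.145% and 0.117% in kidney and at 0.216% and 0.287% in brown adipose. They appeared at no more than 0.00162% in liver, white adipose and muscle. These lists were picked for the purpose after their values were seen, since genes in the lists of the other organs are transcribed in several of the tissues. Genes restricted to kidney (Kap, Slc34a1 and Umod) appeared at 0.2% and 0.246% of their kidney level in heart and at 0.11% and 0.142% in white adipose. The sum of the 4 B cell genes was 0.319% and 0.260% of its spleen level in fed and fasting heart, 0.175% and 0.171% in kidney, and 0.167% and 0.104% in brown adipose. B cell levels in heart and kidney were thus similar in size to those of the lung genes. In brown adipose they were below those of the lung genes and far above the kidney genes, which were at 4.45e-04% and 0.00204% there. In liver the B cell sum was at 0.301% and 0.283%, the kidney genes at 0 and 1.66e-04%, and the muscle genes Myh4, Acta1 and Ckm at 0.125% and 0.108% of their muscle level. Tlx1, a transcription factor gene of spleen, had 0 counts in fed and 2 in fasting liver, the latter being 0.354% of its spleen level. In heart Tlx1 had 3 counts fed and 5 fasting, at 0.688% and 1.45% of spleen. Kidney had 0 counts of it fed and 3 fasting, the latter at 0.514%. In the libraries of muscle, lung and both adipose depots it was at 0.161% or less. The part of RNA from other organs in the low levels was not tested.

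The 2 lineages were not present in the same proportion in every tissue. Summed over the members, spleen held 2564 CPM of B cell and 310 CPM of T cell genes when fed, a ratio of 8.28 (95% interval 8.08 to 8.49), and 2421 and 299 CPM when fasting, a ratio of 8.09 (7.90 to 8.27). Fed lung held 158 and 61.6 CPM, a ratio of 2.57 (2.43 to 2.71), and fasting lung 82.5 and 17.4 CPM, a ratio of 4.76 (4.36 to 5.19). Lung thus had relatively more T cell transcript than spleen in both libraries, and the gap to spleen was smaller in fasting lung.

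The ratio of B to T cell genes was between 1.0 and 3.81 in the other tissues apart from muscle. Heart had the highest of these ratios, 3.81 (2.64 to 5.63) fed and 3.10 (2.05 to 4.8) fasting. White adipose had 1.69 (1.32 to 2.17) and 1.33 (1.05 to 1.68), and kidney 1.4 (1.03 to 1.93) and 1.65 (1.20 to 2.28). The intervals of white adipose, kidney and brown adipose overlapped each other and none reached that of spleen. Muscle held 19 B cell and 10 T cell counts when fed and 4 and 6 when fasting, and its ratios of 1.90 and 0.667 had intervals from 0.138 to 4.57. The sums depend on which genes enter them, so a ratio says how a tissue stands against another rather than how many cells of each lineage it holds.

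As a share of the spleen level of the same treatment, the T cell sum was 19.9% in fed and 5.80% in fasting lung, and the B cell sum 6.17% and 3.41%. In the libraries of white adipose, liver, kidney, heart and brown adipose the T cell sum was 0.679% to 1.56% and the B cell sum 0.104% to 0.319% of spleen. The T cell share exceeded the B cell share in all 14 libraries outside spleen.

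**Figure D3:**
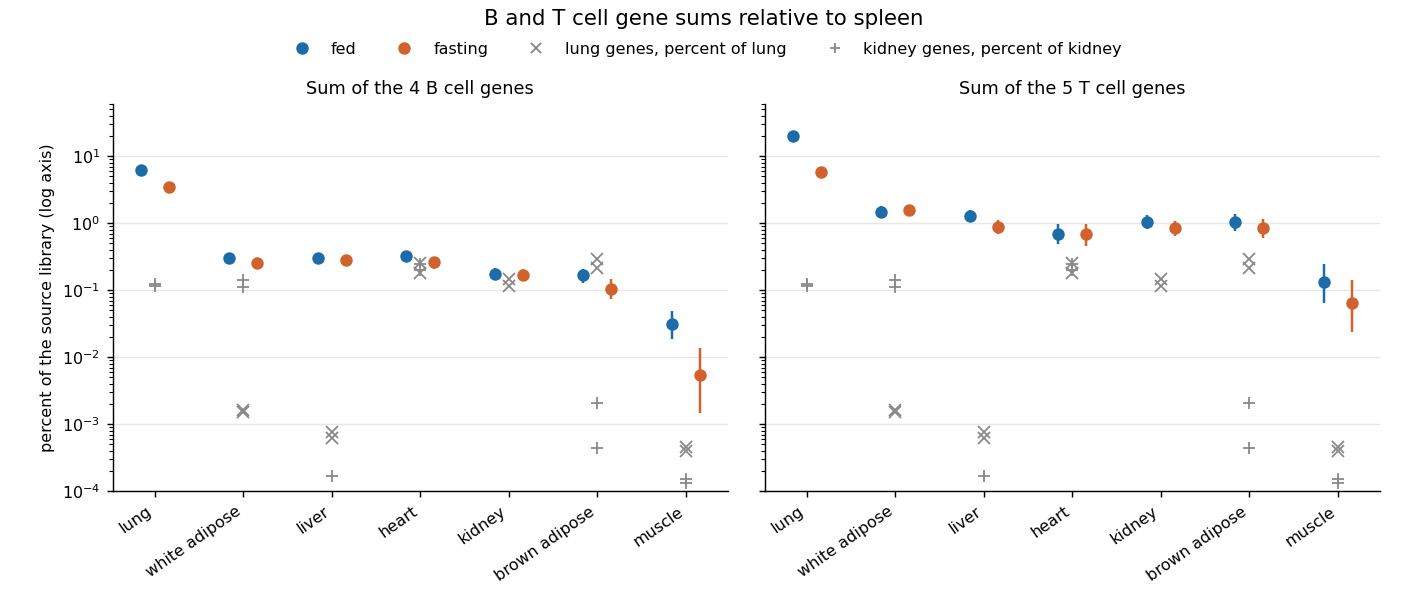
Summed level of the 4 B cell genes (left) and the 5 T cell genes (right) in 7 tissues, as a percent of the sum in the spleen library of the same treatment (log axis), with 95% counting intervals. Grey crosses and plus signs give lung genes and kidney genes as a percent of their own organ in the same libraries, and values of 0 are not drawn. B cell sums in heart and kidney lie near the grey marks and those in brown adipose between the crosses and the plus signs, and T cell sums lie above them in every tissue.

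Ratios within a complex had intervals that overlapped in the lymphocyte-rich libraries. Per kilobase, the level of Cd79a was 0.569 (0.553 to 0.585) of that of Cd79b in fed spleen, 0.540 (0.527 to 0.554) in fasting spleen, 0.545 (0.496 to 0.597) in fed lung and 0.514 (0.457 to 0.578) in fasting lung. Cd3d stood at 2.09 (1.91 to 2.28) and 2.22 (2.05 to 2.41) times Cd3e in spleen and at 2.21 (1.83 to 2.66) and 2.27 (1.68 to 3.07) times in lung. Cd3g stood at 1.57 (1.45 to 1.71) and 1.65 (1.53 to 1.78) times Cd3e in spleen. In lung it was at 1.58 (1.33 to 1.89) times Cd3e fed and higher, at 2.10 (1.61 to 2.75) times, fasting. Each of these ratios had intervals in both lung libraries that overlapped those of spleen. Ms4a1 relative to Cd79b differed between the organs, at 0.336 (0.328 to 0.343) and 0.332 (0.325 to 0.338) in spleen against 0.248 (0.23 to 0.268) and 0.215 (0.195 to 0.238) in lung.

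The coreceptors were less uniform. Per kilobase, Cd4 stood at 1.06 (0.995 to 1.13) and 1.27 (1.20 to 1.35) times Cd8a in fed and fasting spleen and at 0.887 (0.787 to 1.0) and 1.18 (0.927 to 1.5) times in lung. In liver, Cd4 was 15.0 times (4.86 to 75.4) and 5.56 times (2.33 to 16.1) Cd8a, and in white adipose 7.52 times (3.22 to 21.5) and 5.0 times (2.61 to 10.5). In kidney the ratio was 0.535 (0.269 to 1.03) and 0.846 (0.389 to 1.83). Liver and white adipose thus had more Cd4 relative to Cd8a than spleen beyond counting error. Macrophages and dendritic cells can also transcribe Cd4. All 12 of their listed genes had counts in both tissues, with sums of 303 and 263 CPM in fed and fasting liver and 1299 and 1149 CPM in white adipose, against 3070 and 3282 CPM in spleen. Their part in the Cd4 level was not tested.

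How the organs differed was tested over the 16 libraries for 5 pairs of tissues with edgeR's quasi-likelihood test, with terms for tissue and treatment and Benjamini-Hochberg adjustment over 23580 genes. The fed and the fasting pool stand in as the 2 observations of a tissue. The fed lung library, with its thymus transcripts, enters the contrasts with lung. Spleen exceeded lung in 9 of 9 members, with log2 differences of 4.2 to 4.73 for the B cell genes and 2.92 to 3.17 for the T cell genes. The smallest, for Cd8a, was 2.92 ± 0.50 (SE, edgeR adjusted p = 5.42e-04) and the largest, for Ms4a1, 4.73 ± 0.29 (edgeR adjusted p = 4.46e-07). Over all genes tested, 30.0% were called higher in spleen than in lung.

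Lung exceeded white adipose in 9 of 9 members, where 17.7% of all genes were called higher in lung. The differences ran from 2.07 ± 0.45 on the log2 scale for Cd4 (edgeR adjusted p = 0.00467) to 4.62 ± 0.62 for Cd8a (edgeR adjusted p = 1.92e-04). Between white and brown adipose 0 of 9 were called by edgeR and by DESeq2, where edgeR called 20.5% of all genes higher in white adipose. Cd79a had a log2 difference of 1.3 ± 0.55 (edgeR adjusted p = 0.0845) and Cd22 one of 0.93 ± 0.38 (edgeR adjusted p = 0.0747), and these were the only members with an unadjusted p under 0.05. Using library totals in place of TMM factors, which shifted this pair by a median of 0.38, Cd79a (1.66 ± 0.52) and Cd22 (1.31 ± 0.37) were called.

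With TMM factors, liver exceeded kidney in all 4 B cell genes and in Cd4, against 19.2% of all genes called higher in liver. The differences on the log2 scale were 1.88 ± 0.45 for Cd79a, 1.07 ± 0.34 for Cd79b, 1.59 ± 0.35 for Ms4a1, 1.60 ± 0.32 for Cd22 and 2.19 ± 0.54 for Cd4. Cd8a pointed the other way, at -1.48 ± 0.76 (edgeR adjusted p = 0.150), and was not called. With library totals, the scale of the CPM values, the liver to kidney differences of all genes were shifted by a median of -0.72. Cd79a (1.16 ± 0.44), Cd22 (0.87 ± 0.32) and Cd4 (1.47 ± 0.55) were then still called higher in liver, Cd79b (0.35 ± 0.36) and Ms4a1 (0.87 ± 0.36) were not, and Cd8a was called lower, at -2.18 ± 0.78 (edgeR adjusted p = 0.0327). Muscle was below heart in the 4 B cell genes and in Cd3g, against 16.4% of all genes called lower in muscle. The 4 B cell differences ran from -2.60 ± 0.64 (Cd79a) to -4.63 ± 0.62 (Ms4a1). Since Cd3g had 0 counts in both muscle libraries, its fitted difference is not given. With library totals the differences were shifted by a median of -0.73 and Cd4 was also called lower in muscle, at -2.20 ± 0.78 (edgeR adjusted p = 0.0368).

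Fasting was compared with feeding within each tissue with a two-sided Fisher's exact test of a gene's counts in the fed and the fasting library. A gene was called where its log2 fold change exceeded 0.5 in either direction and its unadjusted p was under 0.01. The fold change is that of CPM + 0.01. With 1 pool per group the test compares 2 libraries and holds counting error only. Over all genes with a count, the share called lower in the fasting library was 6.49% in lung, 1.62% in spleen, 5.84% in white adipose, 7.58% in brown adipose, 9.52% in liver, 3.93% in kidney, 5.80% in heart and 9.39% in muscle. The share called higher was 2.68% in lung, 2.31% in spleen, 13.2% in white adipose, 5.39% in brown adipose, 4.46% in liver, 2.77% in kidney, 4.33% in heart and 4.42% in muscle.

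Of the 72 comparisons of a member in a tissue, 10 were called lower in the fasting library and 0 were called higher. Lung gave 9 of the 10, so that all 9 members were called lower there, and Cd79a in white adipose gave the other. With a coefficient of variation of 0.2 assumed between pools, 6 of 72 were called, all of them in lung. The share of all genes called under that assumption was not counted. Without lung, 1 of 63 comparisons was called. The fasting level was below the fed level in 55 of the 72 comparisons, and in 46 of 63 without lung, most of them within counting error. The share of all genes below the fed level was not counted. In every tissue but white adipose and spleen, more of all genes were called lower than higher.

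In lung all 4 B cell genes were called lower. Cd79a had a fasting to fed ratio of 0.504 (0.446 to 0.569), Cd79b of 0.534 (0.489 to 0.583), Ms4a1 of 0.463 (0.424 to 0.506) and Cd22 of 0.579 (0.533 to 0.630), and the intervals of Ms4a1 and Cd22 did not overlap. The T cell genes had lower ratios, with intervals of Cd3d and Cd3g that reached those of B cell genes. The ratio was 0.337 (0.262 to 0.431) for Cd3d, 0.328 (0.255 to 0.419) for Cd3e and 0.435 (0.356 to 0.530) for Cd3g, and it was lowest for the coreceptors, at 0.250 (0.208 to 0.298) for Cd4 and 0.188 (0.153 to 0.229) for Cd8a. The p-values by Fisher's exact test lay between 3.40e-83 for Cd8a and 6.63e-18 for Cd3g.

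Summed, B cell genes of lung had a ratio of 0.522 (0.498 to 0.546) and T cell genes one of 0.282 (0.257 to 0.309), and these intervals did not overlap. The 8 thymus genes, summed in the same libraries, went from 79.4 to 1.41 CPM. When pools were assumed to vary with a coefficient of variation of 0.4 beyond counting error, edgeR's exact test called 1 of the 9 members in lung. With one of 0.2 it called 6. The 6.49% of all genes called lower in lung belongs to Fisher's exact test, and no such share was counted for edgeR's exact test. How much pools of 3 mice vary was not measured, so the fall in lung is a difference between these 2 libraries.

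In spleen, where the members rest on 940 to 23966 counts, no member passed the fold threshold. Cd22 had a ratio of 0.875 (0.856 to 0.893) and Cd8a one of 0.869 (0.814 to 0.929), while Cd3d, at 0.999 (0.916 to 1.09), and Cd4, at 1.04 (0.982 to 1.10), had intervals that included 1. The B cell sum of fasting spleen was 0.944 (0.934 to 0.955) and the T cell sum 0.967 (0.937 to 0.999) of the fed sum. Cd79a had a ratio of 0.937 (0.909 to 0.965) and Ms4a1 one of 0.975 (0.957 to 0.993). The intervals of Cd79b, Cd3e and Cd3g included 1. For Cd22, Cd79a, Cd8a and Ms4a1 the p-values by Fisher's exact test were 8.21e-35, 1.92e-05, 2.96e-05 and 0.00755, beyond counting error, and no spread between pools was measured against which to set them.

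In white adipose Cd79a had 32 counts fed and 14 counts fasting, a ratio of 0.372 (0.183 to 0.716; p = 0.00162 by Fisher's exact test). Its partner Cd79b had 44 and 54 counts, a ratio of 1.04 (0.687 to 1.59), and was not called. The 2 intervals overlapped, and the difference between the genes was not tested. Cd3d fell short of the threshold with 17 and 6 counts (p = 0.0104 by Fisher's exact test), and Cd3e had 14 and 28. The B cell sum of white adipose had a ratio of 0.798 (0.643 to 0.989). The T cell sum had one of 1.02 (0.780 to 1.33), which fell below 1 with TMM factors. Other leukocyte genes moved in the same libraries. Of the 8 genes of all leukocytes 3 were called lower, with a sum of 316 CPM fed and 247 CPM fasting, and of the 10 genes of NK and cytotoxic cells 5 were, with a sum of 15.9 and 9.77 CPM. Other genes were called higher there. Of the 18 other T cell genes 4 were (Tcf7, Bcl11b, Il7r and Lef1, with ratios of 1.54 to 6.79). Cd247 of that list was called lower, from 8.93 to 2.37 CPM, a ratio of 0.265 (0.198 to 0.352). Of the 15 homing genes 2 were called higher (Cxcl12 and Cxcl13, with 2 called lower). Of the 9 lymph node genes 3 were called higher, which are Cxcl13 again, Madcam1 with 0 and 10 counts and Fcgbp with 1 and 19. Among genes of other organs and of adipocytes, Tnnt2 (3 and 115 counts), Acta1 (a ratio of 2.55) and Umod (2.06) were called higher. Plin1 (0.369) was called lower, and the other genes listed for heart, muscle, kidney and adipose were not called. The part of any of these genes in the values for the members was not tested.

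The other tissues gave no called member. In brown adipose the B cell sum went from 71 to 36 counts, a ratio of 0.591 (0.384 to 0.895), with Ms4a1 at 30 and 13 counts and Cd4 at 22 and 7. Genes of all leukocytes and of muscle moved with it. Of the 8 leukocyte genes 3 were called lower, with a summed level of 79.4 CPM fed and 53.1 CPM fasting, and of the 3 muscle genes 3 were, at 1907 and 910 CPM. Cd3e went the other way, from 4 to 12 counts. The part of other cells in the brown adipose values was not tested. In liver the T cell sum had a ratio of 0.662 (0.475 to 0.918) and the B cell sum one of 0.886 (0.714 to 1.10). Of the 8 leukocyte genes 3 were called lower in liver, with a sum of 66.9 and 52.0 CPM, and their part in this was not tested. In muscle the B cell sum went from 19 to 4 counts, a ratio of 0.164 (0.0405 to 0.493), at levels of 0.789 and 0.129 CPM. The adipocyte genes Adipoq (a ratio of 0.422, 0.355 to 0.501) and Plin1 (0.290, 0.229 to 0.365) were called lower in the same fasting muscle library, while Fabp4 was at 110 and 132 CPM. Their part in the muscle values was not tested. In heart and kidney the intervals of the ratio reached 1 for both sums.

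**Figure D4:**
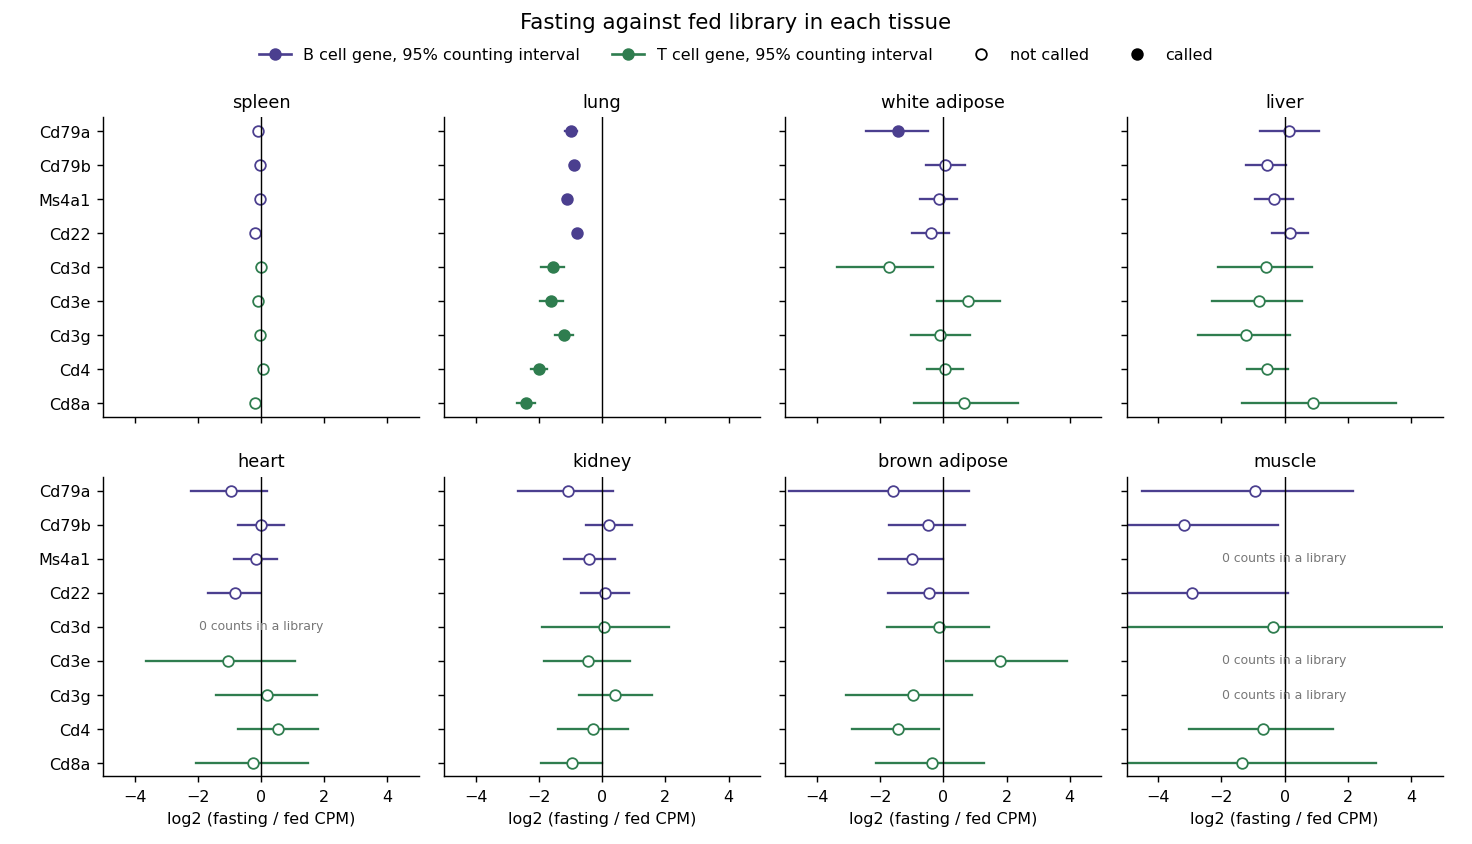
Log2 ratio of fasting to fed CPM for the 9 members in each of the 8 tissues, with 95% counting intervals clipped at the axis limits. Purple marks B cell and green T cell genes, filled points were called and open points were not, and pairs with a library at 0 counts are not drawn. All 9 points are filled and left of 0 in lung, and the spleen points sit close to 0.

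Whether the members moved one way over the tissues was tested with the same edgeR fit, whose 8 tissues come from the same 2 pools of mice. The log2 fold change of fasting over fed was below 0 for all 9, from -0.73 ± 0.30 (SE) for Cd3d to -0.29 ± 0.17 for Cd79b, but 0 of 9 passed an adjusted p of 0.05. Over all 23580 genes, 0.840% were called lower. Cd79a came nearest, at -0.62 ± 0.19, below the fed level in 7 of 8 tissues (edgeR adjusted p = 0.117). DESeq2 also called 0 at an adjusted p of 0.05. At an unadjusted p under 0.05 there were 4 members in edgeR (Cd79a, Ms4a1, Cd22 and Cd3d) and 3 in DESeq2. The share of all genes at that unadjusted threshold was not counted, so these 2 counts have no base rate beside them.

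Without the lung libraries the estimates moved toward 0, to -0.52 for Cd79a, -0.20 for Cd8a and -0.01 for Cd3e, and the lowest edgeR adjusted p among the 9 was 0.283. Cd4 went from -0.52 to -0.21. No member was thus called over the tissues, and the estimated size of the change depended on lung.

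Other genes of the same lineages, taken from lists written with earlier results of these data in view, gave the following counts. Of 18 other B cell genes, 17 were called lower and 0 higher in lung, with a median log2 fold change of -1.02 against -0.10 over all genes tested. Pax5, which maintains B cell identity, went from 42.7 to 21.5 CPM, and the immunoglobulin gene Ighm from 186 to 98.6 CPM. In spleen 1 of the 18 was called lower, with a median of -0.09 against -0.01, and Pax5 was at 640 and 601 CPM.

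Of 18 other T cell genes, 16 were called lower and 0 higher in lung, with a median of -1.35. Cd247, the zeta chain of the T cell receptor complex, went from 12.5 to 4.69 CPM and Trac, the constant region of the alpha chain, from 8.32 to 3.27 CPM. Il7r, the interleukin 7 receptor, which other lymphoid cells also carry, was at 17.1 and 19.8 CPM and was not called. In spleen Il7r was the 1 gene of this list called higher, from 98.2 to 185 CPM, a ratio of 1.88 (1.79 to 1.98), and none was called lower. Il7r was called higher in 3 of 8 tissues (spleen, kidney and white adipose).

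Kinases and adaptors downstream of the receptors were also listed. Among 13 genes of B cell receptor signalling, 8 were called lower and 1 higher in lung (median -0.65), and 0 were called in spleen. Syk, the kinase that binds the phosphorylated Cd79 chains, went from 118 to 77.5 CPM in lung, while Lyn, which myeloid cells share, was at 147 and 118 CPM and was not called. Among 12 genes of T cell receptor signalling, 10 were called lower and 0 higher in lung (median -1.09). Lck, the kinase bound to the coreceptors, went from 19.0 to 5.52 CPM and Zap70 from 7.68 to 4.71 CPM. Plcg1, which many cell types transcribe, was at 274 and 323 CPM.

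Genes of other leukocytes were compared in the same libraries. In lung all 10 genes of NK and cytotoxic cells were called lower (median -0.94), with Ncr1 at 7.12 and 3.88 CPM and Gzma at 20.7 and 9.20 CPM. Of 8 genes shared by all leukocytes 7 were called lower (median -0.85), and Ptprc, which encodes CD45, went from 373 to 194 CPM. Of 12 genes of macrophages and dendritic cells 1 was called lower (median -0.22), and Adgre1 and Lyz2 stood at 33.2 and 29.4 CPM and at 4121 and 3737 CPM. Neutrophil genes were mixed, with 4 called lower and 2 higher of 8, and S100a8 at 30.0 and 19.9 CPM. In spleen, the NK and leukocyte lists gave 0 calls, the macrophage list 1 in each direction, and the neutrophil list 3 lower (S100a8, S100a9 and Retnlg) and 1 higher (Ngp) of 8.

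Of 15 genes of lymphocyte homing and egress, 8 were called lower and 0 higher in lung (median -0.87). S1pr1, the receptor that guides lymphocytes out of tissue and is also found on endothelium, was at 312 and 408 CPM and was not called. In spleen S1pr1 was at 254 and 261 CPM, and 1 of the 15 was called higher and 2 lower. Of 10 genes of developing lymphocytes and thymus, 6 were called lower in lung and 0 were called in spleen, and of 11 plasma cell genes 2 were called lower in lung, and 2 were called higher (Igha and Ighg1) and 1 lower (Ighg2c) in spleen. For the lymph node list of 9 genes found in the table, 1 was called lower in lung, Fcgbp, at 21.8 and 13.6 CPM, and their sum was 274 and 251 CPM. Glycam1, a mucin of high endothelial venules, had 1 count in each lung library and Madcam1 had 1 and 0, while Chst4 was at 7.42 and 5.96 CPM.

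**Figure D5:**
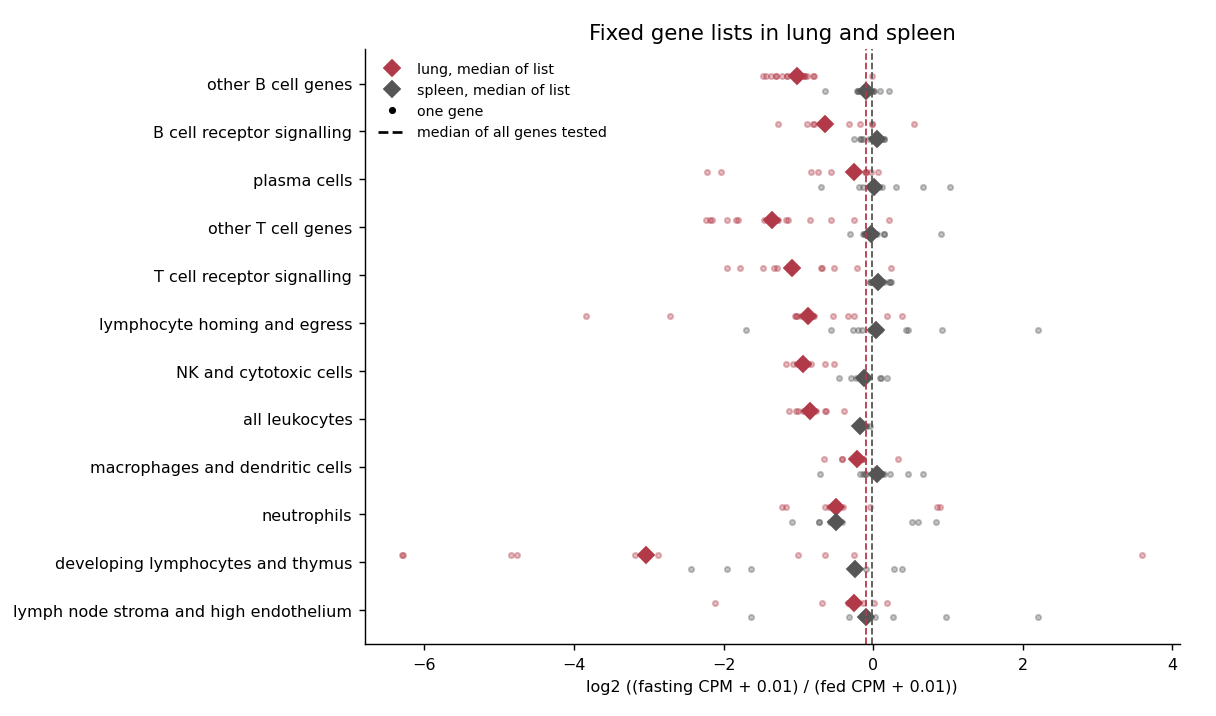
Log2 fold change of (CPM + 0.01), fasting over fed, for the genes of 12 lists in lung (red) and spleen (grey). Small points are genes, diamonds the median of a list, and dashed lines the median of all genes tested, -0.10 in lung and -0.01 in spleen. The lung medians of the B cell, T cell, NK and leukocyte lists lie between -1.35 and -0.85, and that of the thymus list at -3.03.

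The genes whose pattern was most like that of the members were sought among 21965 genes with at least 1 CPM in a library, by Pearson's r between log2(CPM + 1) of a gene and the mean of the B cell or the T cell members over the 16 libraries. The libraries of a tissue share its make-up, and spleen and lung set most of the range, so the values are a description. For the B cell genes the 5 closest included Pax5 (r = 0.9985), Ighd and Pou2af1 (0.9975 each) and Fcmr (0.9971). For the T cell genes they were Cd6 and Cd5 (0.9971 each), Ms4a4c (0.9970), Fcrla (0.9968) and Sla2 (0.9961). Fcrla is in the list of other B cell genes, so closeness to the T cell mean did not fully separate the lineages. Over the 14 libraries without spleen, a comparison not repeated without lung, 4 of the 5 were again among the closest 5 for the B cell genes and 3 of the 5 (Cd6, Cd5 and Fcrla) for the T cell genes. The closest to the T cell genes without spleen was Trbc2 (0.9908).

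Between members the correlation over the 16 libraries was 0.967 to 0.998. Without spleen it was 0.977 to 0.992 among the B cell genes. The lowest of all 36 pairs without spleen was that of Cd4 and Cd8a, at 0.862, and the CD3 chains correlated with each other at 0.956 to 0.960. A B cell and a T cell gene could be as alike as genes of 1 lineage, since Cd79b and Cd3g had 0.981 without spleen.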

How the data were processed

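The 9 members and all gene lists were chosen with earlier results of these data known. Per the paper's methods, the authors prepared strand-specific paired-end libraries from RNA of pooled tissue, trimmed reads with fastp, aligned them to GRCm38 with HISAT2 and counted them per gene with featureCounts on GENCODE vM24; the submitters' processing notes list fastp 0.23.2, FastQC 0.11.8, HISAT2 2.2.1.0 and Subread 2.0. The strand setting and whether pairs or single reads were counted are not given in the sources used here. The authors deposited whole-number counts per gene, not normalized, with each gene's length and coordinates (an other value, used for levels per kilobase). Library totals were 14245178 to 36069968, and no column of another sample was used.

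Symbols were matched by identifier without version for 55144 of 55385 genes. CPM used the library total. Within a tissue, log2((CPM fasting + 0.01)/(CPM fed + 0.01)) and Fisher's exact test followed the study's methods, and genes were called above 0.5 in size at an unadjusted p under 0.01. Intervals were exact (Poisson, or Clopper-Pearson for ratios of counts), at 95%, and cover counting error only. Across tissues, edgeR 4.0.16 (R 4.3.3) fitted terms for tissue and treatment by quasi-likelihood after filterByExpr and TMM scaling, with 7 residual degrees of freedom and a common coefficient of variation of 0.219. The SE is the size of the log2 fold change over the square root of F. Where a gene varied less than counting error, edgeR takes a Poisson p, so p-values without lung are given with no SE. No replicate exists. The p-values of Fisher's exact test hold counting error only. Those of edgeR rest on the spread left between these libraries after the terms for tissue and treatment. Other steps ran in scipy 1.17.1, pandas 2.3.3 and numpy 2.4.6 under Python 3.11.15, with figures from matplotlib 3.10.9. The test within a tissue and the fit across tissues were tested on simulated data.

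Named genes were the 9 members, the 5 closest genes per lineage, and of each list the first 2 genes, the 2 with the highest mean CPM and any called in 1 direction in at least 6 of 8 tissues. A few genes that this rule selects are not reported here. Further genes were named after their values were seen: Dntt, Psmb11 and the rest of the thymus list, Nppa, Elovl3, Tlx1, the genes of muscle and adipocytes, Fcgbp, Madcam1, Chst4, the genes called higher in white adipose, Igha, Ighg1, Ighg2c, S100a9, Retnlg, Ngp, Cxcr4, Ccr6, Ccl19, Ccr7, Ccr9, Themis, Cd8b1, Tcf7, Lef1 and Trbc2, and the list of 8 thymus genes was trimmed then. Promoter windows came from RefSeq on GRCm38.p6, for 6 of the 9 members. Cd79b, Ms4a1 and Cd4 were not in that table, and the Cd22 window began inside an annotated exon. Alternatives were other scalings (TMM, DESeq2 1.42.0 size factors), a pseudocount of 1, a filter at 1 CPM, an adjusted p, a log2 fold above 1, an assumed spread between pools, other fits, tissues left out, and other sums of the members.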

Additional observations from a re-analysis of the deposited data

How the results depend on the processing

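The fit across tissues sets fasting against fed within each tissue, and the labels carry no replicate numbers for any other pairing. Of the 72 comparisons within a tissue, the number called lower was 7 to 11 with other scalings, pseudocount, filter, fold or adjusted p and 0 were called higher under any setting. When edgeR's exact test was given a coefficient of variation of 0.2 between pools it was 6 of 72. Given 0.4 it was 1 of 72, with 1 of 9 in lung. The share of all genes called by that test was not counted. Without the lung libraries, a setting chosen after seeing the data, the number of members called lower was 1. The fold change of the B cell sum in lung was -0.86 on the log2 scale with TMM factors, against -0.94. TMM factors shifted all fold changes by 0.12 in liver and -0.11 in white adipose and by less than 0.1 elsewhere, and, leaving out comparisons that round to 0, 2 of 72 changed sign (Cd79b and Cd4 in white adipose, neither called). Across tissues 0 of 9 members were called under every fit run, leaving out each tissue in turn included, while the count over all genes went from 441 to 1815 with DESeq2's Wald test, 677 with no filter, 156 without both adipose tissues, 81 to 473 with a tissue left out and 1 with no tissue block. White against brown adipose gave 2 members called in place of 0 with total counts. Between liver and kidney, Cd79b and Ms4a1 were then no longer called and Cd8a was newly called, lower in liver. Muscle against heart gained Cd4. The calls of spleen against lung and of lung against white adipose stayed as they were. The B to T ratio moved with its definition but in these 4 libraries stayed lowest in fed lung and highest in spleen. In fed spleen it was 10.1 per kilobase, 10.3 by geometric mean, 11.7 without Cd4 and 5.96 without Cd22. In fasting spleen it was 9.92, 10, 11.8 and 5.98, in fed lung 3.37, 3.35, 3.63 and 1.83, and in fasting lung 6.07, 5.88, 6.42 and 3.24. Per kilobase, Ms4a1 ranked 3 in place of 1 and Cd79b 1 in place of 3 among the members in fed spleen. By Spearman's rho 0 of the 5 closest genes stayed among the first 5 in either lineage, and without spleen 4 stayed for the B cell and 3 for the T cell genes. The cause of these differences was not tested. Depth limits the 6 tissues outside spleen and lung, where no member exceeded 62 counts.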

Other observations

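Ighm, the heavy chain gene of IgM, did not follow the other B cell genes in every tissue. In white adipose it was at 338 CPM fed and 76.3 CPM fasting, a ratio of 0.226 (0.215 to 0.237). In the same libraries Cd79b was at 1.89 and 1.97 CPM, Ms4a1 at 2.15 and 1.93 CPM and Cd22 at 2.36 and 1.79 CPM. Cd79a was called lower there, from 1.37 to 0.510 CPM, and the interval of its ratio, 0.372 (0.183 to 0.716), included that of Ighm. In muscle Ighm was at 47.7 and 37.8 CPM, while Cd79a was at 0.125 and 0.0646 CPM there. In liver Ighm was at 13.5 and 12.3 CPM and in kidney at 15.1 and 17.9 CPM. Relative to spleen, where Ighm was at 4880 and 5195 CPM, the level in fed white adipose thus stood far above that of the members. Ighm was called lower in the fasting library in 4 of 8 tissues (lung, white adipose, brown adipose and heart) and higher in 0. Other B cell genes called in white adipose numbered 2 of 18, Ighm included, and the part of B cells in the Ighm level was not tested.

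In spleen no member was called, but the chemokine receptor Cxcr4 was called higher in the fasting library. Cxcr4, which holds lymphocytes in bone marrow and lymphoid tissue, went from 104 to 198 CPM in spleen, a ratio of 1.90 (1.81 to 1.99), close to the ratio of 1.88 (1.79 to 1.98) for Il7r. Ccr7 was at 97.5 and 93.7 CPM and Ccr9 at 32.4 and 33.3 CPM in spleen, and neither was called. Of the same list, the chemokine receptor Ccr6 (37.6 and 25.4 CPM, a ratio of 0.677, 0.612 to 0.749) and the chemokine Ccl19 (1.19 and 0.359 CPM) were called lower in spleen. In lung, Ccr9, which developing T cells carry, was at 13.8 and 2.11 CPM, a ratio of 0.152 (0.118 to 0.195), and the ratios of the 16 other T cell genes called lower ran from 0.211 (0.176 to 0.252) for Themis to 0.678 (0.614 to 0.749) for Lef1. Themis, Cd8b1, Tcf7 and Lef1 are active in thymocytes as well as in mature T cells, and Cd8b1 and Tcf7 had ratios of 0.220 (0.175 to 0.275) and 0.447 (0.408 to 0.489). Trbc2, a constant region of the beta chain, had one of 0.224 (0.190 to 0.263). These genes were picked out after their values were seen, and each ratio compares 1 library with 1 library.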
